A study of Mus musculus with 3 samples.

Results

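Bone morphogenetic protein (BMP) signalling in endothelium was followed through 10 genes of 27,985 in the single-cell count table, chosen by name and matched through their Ensembl identifiers on the mouse genome (mm10). They comprise the ligands Bmp2, Bmp4 and Bmp6, the receptor Acvrl1 and its co-receptor Eng, the inhibitory Smads Smad6 and Smad7, and the target genes Id1, Id2 and Id3. All 10 were found, each as a single protein-coding gene, and 1 of them, Bmp6, stayed below 0.1 unique molecular identifiers (UMIs) per 10,000 in every cluster.

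The cells came from the hearts of female GFP-transgenic mice aged 12 to 16 weeks. Cardiac endothelial cells were sorted as positive for GFP, CD31 and VE-Cad and negative for CD41, CD45, PDGFRA and PDGFRB, and aggregated with PDGFRA+ stromal cells (PSCs) of the aorta-gonad-mesonephros region of E11.5 embryos, labelled with DsRed through Mesp1-cre (Mesp1der PSCs), in medium with IL-3, SCF and Flt3L. After 24, 48, 72 and 96 h, cells were sorted again by GFP, CD31, VE-Cad and absence of PDGFRA, with no gate on CD41 or CD45 given for this sort, and mixed with freshly sorted ones, and 3 such pools were sequenced. No cultured group lacked the stromal cells, and a cell carries no time point, so fresh and cultured cells cannot be told apart by label.

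The count table held 9,562 cells in the 7 clusters that the study defined. Barcodes end in 1 of 3 library suffixes, which the labels do not tie to the pools. The libraries are therefore called 1, 2 and 3 after the suffix, and the table was treated as 1 sample. No test was run. Levels are UMIs of a gene per 10,000 UMIs of the cluster, and all intervals are 95% intervals for counting error only. The median depth was 23,651, 13,440.5 and 38,312 UMIs per cell in libraries 1, 2 and 3, and it ran from 7,875 in cluster 1 to 36,065.5 in cluster 5. The libraries shared 13 barcode sequences.

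BMP ligands bind type I and type II serine/threonine kinase receptors, which phosphorylate Smad1, Smad5 and Smad9. These enter the nucleus with Smad4 and switch on target genes, among them the Id genes and the inhibitory Smads, which act back on the pathway. In endothelium the circulating ligands Gdf2 and Bmp10 signal mainly through Acvrl1 (ALK1), with endoglin (Eng) as co-receptor. In the embryonic aorta, BMP4 from the surrounding mesenchyme is known to bear on the emergence of blood cells from endothelium.

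Clusters 0, 1 and 2 carried the endothelial genes. The summed level of 9 pan-endothelial markers was 57.9, 59.9 and 41.6 UMIs per 10,000 in these clusters, and between 4.62 in cluster 4 and 7.78 in cluster 6 elsewhere, although the sort had selected endothelial cells throughout. Cluster 0 (728 cells) was arterial endothelial-like, led by Gja5, Tmem100 and Htra1. Cluster 1 (799 cells) was led by Il1a, Saa3 and Csf3, and its summed level of 6 heart capillary markers was 74.7 against at most 2.85 in the other clusters. Cluster 2 (5,396 cells) was led by Aplnr and was endothelial-like. Cluster 3 (239 cells) was germ or pluripotent-like, led by Dppa5a and Utf1. Cluster 4 (518 cells) was fibroblast or stromal-like, led by Col1a1, with the epithelial gene Krt8 among its leading genes. Cluster 5 (1,572 cells) held both macrophage and neutrophil markers, with S100a9, Mpo and C1qb among its leading genes, and was given no single name. Cluster 6 (310 cells) was megakaryocyte or platelet-like, led by Ly6g6f and Ppbp. Because the clusters were drawn from the same cells, differences between them are descriptions.

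Promoter sequences are printed for 3 members, the ligand Bmp4, the co-receptor Eng and the inhibitory Smad6. These were the members with an entry whose window lay outside the gene, as set out below. Over the 21 groups of cells made by 7 clusters and 3 libraries, Pearson's r was 0.27 for Bmp4 and Smad6, 0.37 for Bmp4 and Eng and 0.54 for Eng and Smad6. RefSeq promoter sequence (build GRCm38.p6) was held for 6 of the 10 members, and Bmp2, Acvrl1, Smad7 and Id1 had no entry. For Bmp6, Id2 and Id3 the RefSeq window overlaps the gene by the GENCODE annotation used for the counts, so these 3 are not printed. Each line gives the 250 bases before the RefSeq start, 5′ to 3′ on the gene's own strand, for Bmp4 at chr14:46390670-46390919 (- strand), Eng at chr2:32646345-32646594 (+ strand) and Smad6 at chr9:64022060-64022309 (- strand). Capitals mark GGAGCC, letters of a GC-rich Smad element, and GTCT, the core of the Smad-binding element, each searched on both strands. GGCGCC, another GC-rich Smad element, was searched too.
Bmp4: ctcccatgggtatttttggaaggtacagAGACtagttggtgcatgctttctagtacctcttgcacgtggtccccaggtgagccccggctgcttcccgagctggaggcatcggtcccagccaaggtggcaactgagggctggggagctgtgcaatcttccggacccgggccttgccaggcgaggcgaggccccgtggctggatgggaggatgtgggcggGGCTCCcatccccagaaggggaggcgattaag
Eng: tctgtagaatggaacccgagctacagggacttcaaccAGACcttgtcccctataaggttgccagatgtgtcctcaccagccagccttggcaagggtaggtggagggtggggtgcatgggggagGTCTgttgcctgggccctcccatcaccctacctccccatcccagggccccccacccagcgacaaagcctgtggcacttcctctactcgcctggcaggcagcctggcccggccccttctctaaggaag
Smad6: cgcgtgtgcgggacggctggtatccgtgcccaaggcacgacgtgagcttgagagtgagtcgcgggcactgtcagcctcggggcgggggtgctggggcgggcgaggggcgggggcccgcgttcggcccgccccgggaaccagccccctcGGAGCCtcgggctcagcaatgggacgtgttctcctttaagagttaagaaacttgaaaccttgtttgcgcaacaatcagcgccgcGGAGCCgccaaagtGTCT
GGAGCC occurred 2 times before Smad6, once before Bmp4 and not before Eng, against 25.97% of all 32,851 promoter windows of this length with at least 1 match. GTCT occurred in each of the windows printed, as it did in 82.9% of all windows. GGCGCC, held by 9.59% of all windows, was in none of the printed ones. A match is a description of the letters and not a binding site.

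Bmp2, a ligand made by endocardium and capillary endothelium, was highest in cluster 1. Its level there was 0.565, 0.695 and 0.654 UMIs per 10,000 in libraries 1, 2 and 3 (0.622 over all, interval 0.570 to 0.677, 523 UMIs). The next highest was cluster 4 with 0.141, 0.255 and 0.264, and then cluster 2 with 0.0672, 0.0805 and 0.0656. All 3 libraries of cluster 1 stood above every library of every other cluster. Arterial endothelial-like cluster 0 had 18 Bmp2 UMIs in all, a level of 0.0143 (0.00848 to 0.0226), whose library range overlapped that of cluster 3 with 7 UMIs. Clusters 5 and 6 lay between, at 0.0503 and 0.0353.

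Bmp4, the ligand best known for mesoderm and blood formation, had another order. It was highest in cluster 4 at 0.560, 0.668 and 0.645 (0.618 over all, 0.574 to 0.664), followed by cluster 1 at 0.460 and cluster 2 at 0.410, whose library ranges overlapped. Megakaryocyte or platelet-like cluster 6 came next, with 0.259, 0.213 and 0.280, above arterial endothelial-like cluster 0 with 0.182, 0.211 and 0.185. These ranges did not overlap, though the closest libraries, 0.213 and 0.211, were nearly level. Clusters 3 and 5 were lowest, at 0.0477 and 0.0291.

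Bmp6, a ligand of liver endothelium that controls iron balance, was near the limit of counting. It had 53 UMIs in the whole table, 15 in cluster 0, 23 in cluster 1 and 6 in cluster 2. Its level of 0.0273 (0.0173 to 0.0410) in cluster 1 and 0.0119 (0.00667 to 0.0197) in cluster 0 lay above the 0.000427 of cluster 2 in each library. No order could be read among the remaining clusters, which held between 1 and 4 UMIs each.

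**Figure D1:**
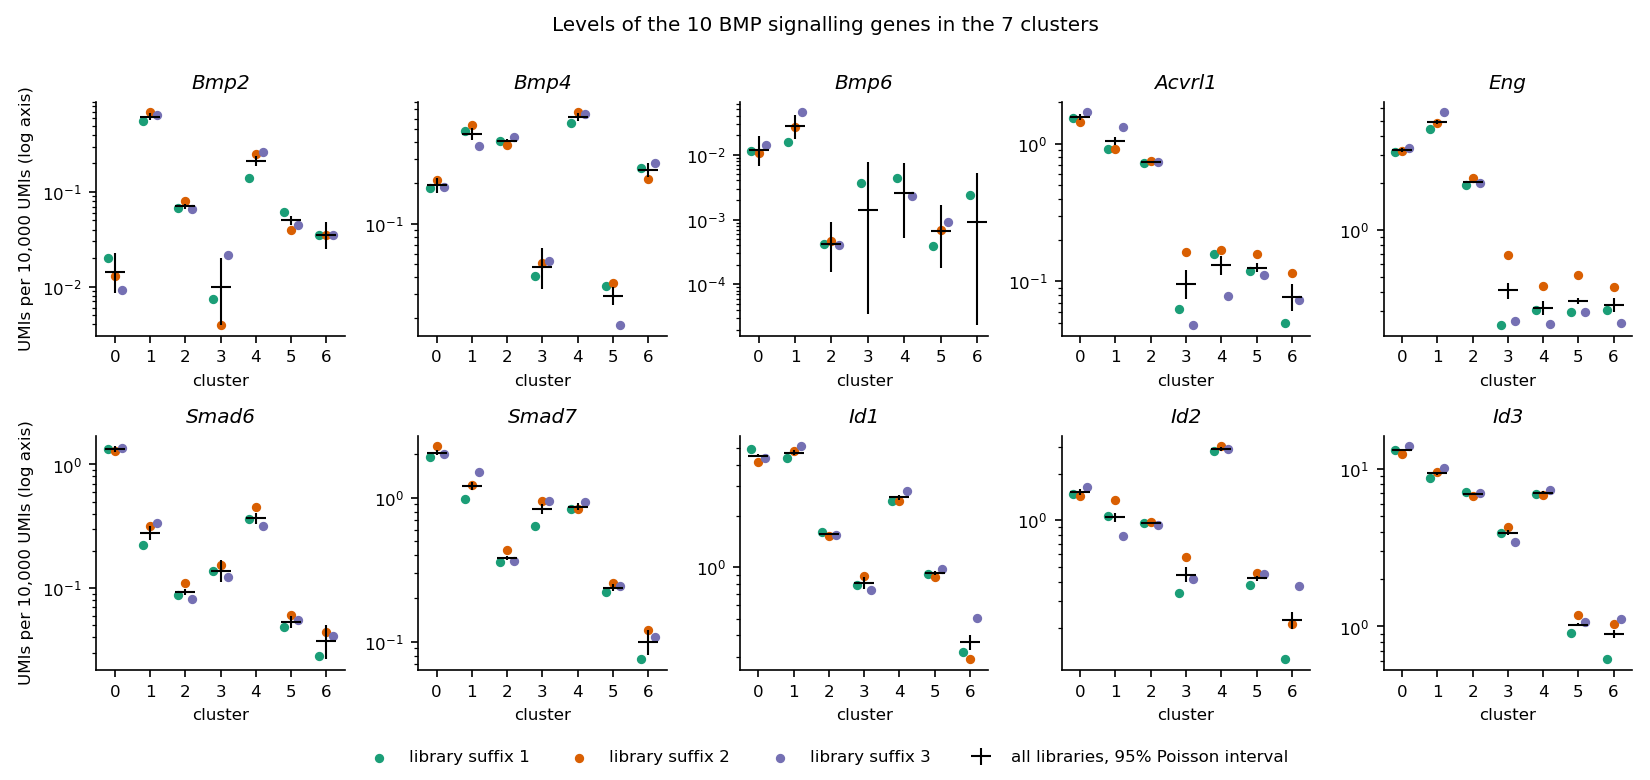
Level of each gene (vertical log axis, UMIs per 10,000 UMIs) in clusters 0 to 6 (horizontal axis). Coloured points are the 3 libraries by barcode suffix, black bars the level over all libraries with its 95% Poisson interval, and a library without a UMI has no point. Bmp2 peaks in cluster 1, Smad6 and Smad7 in cluster 0 and Id2 in cluster 4, and Acvrl1 and Eng drop from clusters 0 to 2 to clusters 3 to 6.

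Acvrl1, the type I receptor of endothelium, and Eng, its co-receptor, both separated clusters 0, 1 and 2 from the rest. Acvrl1 was highest in cluster 0, at 1.55, 1.44 and 1.70 in the 3 libraries, then in cluster 1 at 0.914, 0.921 and 1.33 and in cluster 2 at 0.728, 0.752 and 0.734. The ranges of these clusters did not overlap. In clusters 3 to 6 Acvrl1 lay between 0.0771 and 0.132, and neighbours in that order overlapped. Eng was highest in cluster 1 at 4.42, 4.82 and 5.66, then in cluster 0 at 3.16, 3.20 and 3.32 and in cluster 2 at 1.94, 2.15 and 1.98. So the receptor and the co-receptor had their highest level in different endothelial clusters. In clusters 3 to 6 Eng lay between 0.317 and 0.408, again with overlapping neighbours, and in each of these clusters library 2, the one with the lowest median depth, had the highest Eng and Acvrl1 level.

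Smad6 and Smad7, which compete with the receptor Smads and direct receptors to degradation, were both highest in cluster 0. Smad6 stood at 1.34, 1.30 and 1.36 there, 3.64 times the level of the next cluster, cluster 4, at 0.360, 0.451 and 0.317. Cluster 1 (0.281) overlapped with cluster 4, and clusters 3 (0.139) and 2 (0.0929) followed. Clusters 5 and 6 were lowest at 0.0537 and 0.0371. Smad7 fell over a smaller range, from 2.06 (1.98 to 2.14) in cluster 0 through 1.20 in cluster 1, 0.869 in cluster 4 and 0.834 in cluster 3 to 0.0993 (0.0814 to 0.120) in cluster 6. Cluster 2, the largest endothelial cluster, stood above only clusters 5 and 6 for both genes, with Smad7 at 0.357, 0.433 and 0.362.

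The Id genes code for proteins without a DNA-binding domain that hold basic helix-loop-helix factors inactive, and are classical BMP targets. Id1 was alike in clusters 1 and 0, at 4.71 (4.56 to 4.85) and 4.52 (4.40 to 4.64), with overlapping library ranges, then 2.58 in cluster 4 and 1.57 in cluster 2. Id3 was highest in cluster 0, at 13.2, 12.5 and 13.9 in libraries 1, 2 and 3, then in cluster 1 at 8.76, 9.58 and 10.2. Clusters 4 and 2 followed with overlapping ranges, at 7.05 and 6.95. Id3 was lowest in clusters 5 and 6, at 1.03 and 0.895, which overlapped.

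Id2 had another highest cluster than Id1 and Id3. It was highest in fibroblast or stromal-like cluster 4, at 2.82, 3.01 and 2.90, which was 1.90 times the level of cluster 0, at 1.49, 1.44 and 1.63. Clusters 1 and 2 overlapped at 1.04 and 0.956, clusters 3 and 5 overlapped at 0.443 and 0.421, and cluster 6 was lowest at 0.225.

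To set the members against all genes, a gene was counted as past the fold where its level differed at least 2-fold, in the same direction in each of the 3 libraries, and reached 0.1 UMIs per 10,000 in the higher group. In cluster 0 against cluster 2, which share an endothelial profile, 8 of the 10 members reached that level and 4 were higher, namely Smad6, Smad7, Id1 and Acvrl1, while 9.15% of 8,676 genes were higher. The log2 ratio was 3.84 (3.74 to 3.95) for Smad6, 2.43 (2.36 to 2.50) for Smad7, 1.53 for Id1 and 1.09 for Acvrl1. Id3, Eng and Id2 were higher in each library by less than 2-fold, with log2 ratios of 0.93, 0.68 and 0.67. Bmp4 alone was past the fold downwards, at -1.09 (-1.28 to -0.91), against 2.77% of genes lower. The median log2 ratio of the 8 was 1.01, against 0.09 over all genes tested. Without a minimum level Bmp2 would count as lower too, at -2.31 (-3.07 to -1.64), and Bmp6 as higher, at 4.80 (3.36 to 6.46), with 3.89% of genes lower and 10.2% higher by that rule.

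Cluster 1 against cluster 2 gave 9 members at the minimum level, of which 5 were higher (Bmp2, Smad7, Smad6, Id1 and Eng), with 20% of 9,191 genes higher. None was lower, with 10.4% of genes lower. The log2 ratio was 3.14 (2.98 to 3.29) for Bmp2, 1.66 for Smad7, 1.60 for Smad6, 1.59 for Id1 and 1.28 for Eng. Acvrl1 and Id3 were higher in each library by less than 2-fold, and Bmp4 and Id2 differed in sign between libraries. In cluster 1 the macrophage marker list summed to 4.24 UMIs per 10,000 (0.96 to 5.98 over the libraries) with all 7 of its genes at or above 1 UMI, against 0.0964 in cluster 2. The erythroid list stood at 5.47 (0.255 to 16.6) against 0.280, with 5 of its 6 genes at or above 1 UMI, and the megakaryocyte or platelet list at 2.44 (1.76 to 3.01) against 0.249, and the part of these cells in the result was not tested. A further comparison left out the 210 cells that held a UMI of the macrophage, neutrophil or fibroblast lists at 5,000 UMIs per cell. It also left out the 54 cluster 1 cells under 5,000 UMIs, and did not screen for the erythroid or megakaryocyte lists. With this choice, made after seeing the data, the same count of 5 was higher, and no share of all genes stands beside it. Bmp2 then stood at 3.50 and Id2 at -0.96, against 0.13 with all cells.

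**Figure D2:**
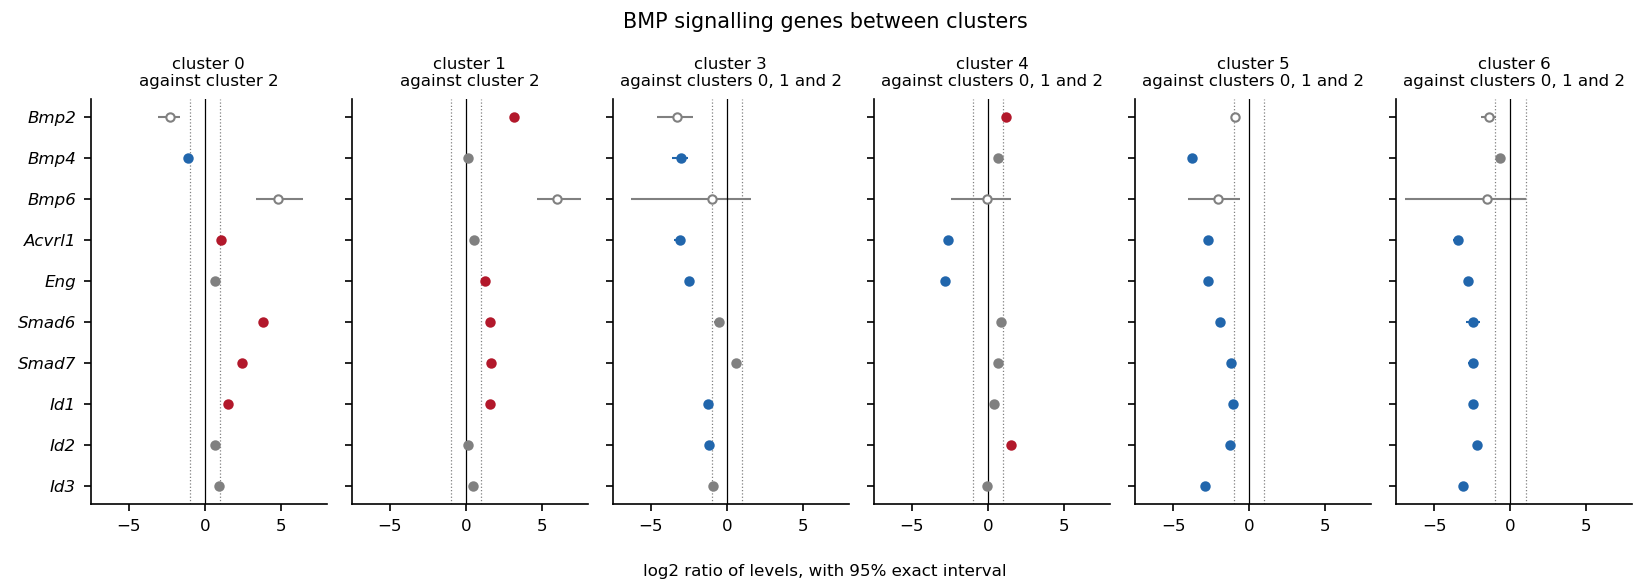
Log2 ratio of levels (horizontal axis) of each gene in the 6 comparisons (panels), with 95% exact intervals for counting error. Red and blue points are past the fold upwards and downwards, grey points are not, open points lie below the minimum level, and dotted lines mark 2-fold. Smad6 is the red point farthest right for cluster 0, and every filled point is blue for cluster 5.

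Clusters 3 to 6 were each compared with clusters 0, 1 and 2 together, so that these comparisons share their reference cells, most of which belong to cluster 2. The median log2 ratio of all genes tested was -0.13, 0.12, -0.06 and -0.11 for clusters 3, 4, 5 and 6, and the members' values stand beside that shift.

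In germ or pluripotent-like cluster 3, 8 members reached the minimum level and none was higher, with 12.3% of 8,928 genes higher. Acvrl1, Bmp4, Eng, Id1 and Id2 were lower, 5 in all, with 24.3% of genes lower. Their log2 ratios were -3.10, -3.05, -2.47, -1.27 and -1.18. Leaving out library 2 took Acvrl1 to -3.85 and Eng to -3.15. Smad7 alone was above the combined reference of clusters 0, 1 and 2 in each library, at 0.59 (0.46 to 0.71). Its level of 0.834 in cluster 3 lay above that of cluster 2 (0.382) but below those of clusters 0 (2.06) and 1 (1.20). Smad6 (-0.52) and Id3 (-0.94) were below the combined reference by less than 2-fold. With the 3 reference clusters weighted equally, so that clusters 0 and 1 counted as much as cluster 2, 8 members were lower by 2-fold or more, Smad6 (-2.04), Id3 (-1.33) and Bmp2 among them, with 29.5% of all genes lower under these weights, and Smad7 turned to -0.54.

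In fibroblast or stromal-like cluster 4, 9 members reached the minimum level, and 2 were higher, Id2 at 1.53 (1.48 to 1.58) and Bmp2 at 1.17 (0.97 to 1.36), with 12.2% of 9,306 genes higher. The Bmp2 value was unstable. It was 0.91 without library 3, 0.43 as a mean over cells and 0.17 with every cell thinned to 5,000 UMIs, and turned to -0.14 with the 3 reference clusters weighted equally. Eng (-2.84) and Acvrl1 (-2.63) were lower, with 7.47% of genes lower. Smad6, Smad7, Bmp4 and Id1 were higher in each library by less than 2-fold, at 0.88, 0.65, 0.64 and 0.40, and Id3 was nearly level at -0.10. With equal weights for the 3 reference clusters Smad6, Smad7 and Id1 turned to -0.63, -0.48 and -0.48, while Bmp4 (0.80) and Id2 (1.30) stayed higher.

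In cluster 5, with its macrophage and neutrophil genes, each of the 8 members at the minimum level was lower, with 16.6% of 8,859 genes lower, and none was higher, with 9.32% higher. Log2 ratios ran from -1.07 (-1.11 to -1.03) for Id1 to -3.76 (-3.99 to -3.55) for Bmp4, and Id3 stood at -2.88. In megakaryocyte or platelet-like cluster 6, 7 of the 8 were lower, with 18.8% of 8,758 genes lower, and none was higher, with 9.96% higher. They ran from -2.16 for Id2 to -3.41 for Acvrl1. Bmp4 was the exception at -0.66 (-0.84 to -0.48). With equal weights for the 3 reference clusters the gap widened in clusters 5 and 6 for Smad6 (-3.41 and -3.94), Smad7 (-2.35 and -3.61) and Id1 (-1.95 and -3.30).

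To read the low levels in clusters 3 to 6, each member's level was given as a percent of that in clusters 0, 1 and 2, beside the 9 pan-endothelial markers, a comparison added after seeing the data. In cluster 3 the markers ranged from 8.73% to 29.6%, and Acvrl1 (11.6%) and Eng (18.0%) lay within. Smad7 stood at 150% there, and Smad6, Id3, Id2 and Id1 between 41.4% and 69.6%. In cluster 4 the markers ranged from 7.21% to 14.0%. Eng lay within that range at 14.0%, Acvrl1 just above at 16.1%, and the other members of adequate count at 93.2% or more. These percents depend on the weighting, because most reference cells belong to cluster 2. With equal cluster weights, Smad6, Smad7, Id1 and Bmp2 in cluster 4 and Smad7 in cluster 3 fell below the reference, as given above.

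In cluster 5 the markers ranged from 7.81% to 21.4%. Acvrl1, Eng and Id3 lay within, at 15.4%, 15.4% and 13.6%, and Bmp4 was below at 7.37%. Bmp2 (52.9%), Id1 (47.5%), Smad7 (42.8%), Id2 (41.9%) and Smad6 (26.9%) were above. In cluster 6 the markers ranged from 8.74% to 34.3%, with Esam, which platelets also make, at the top. Bmp4 stood above them at 63.4% and Bmp2 just above at 37.1%, while the other 7 of the 9 members compared, Id1, Id2 and Id3 included, lay within. Whether RNA of other cells set those 7 levels was not tested. The percents in clusters 5 and 6 depend on the weighting too. With equal cluster weights Smad6, Smad7 and Id1 fell further in both, as given above. Where the members then lie beside the markers was not computed.

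**Figure D3:**
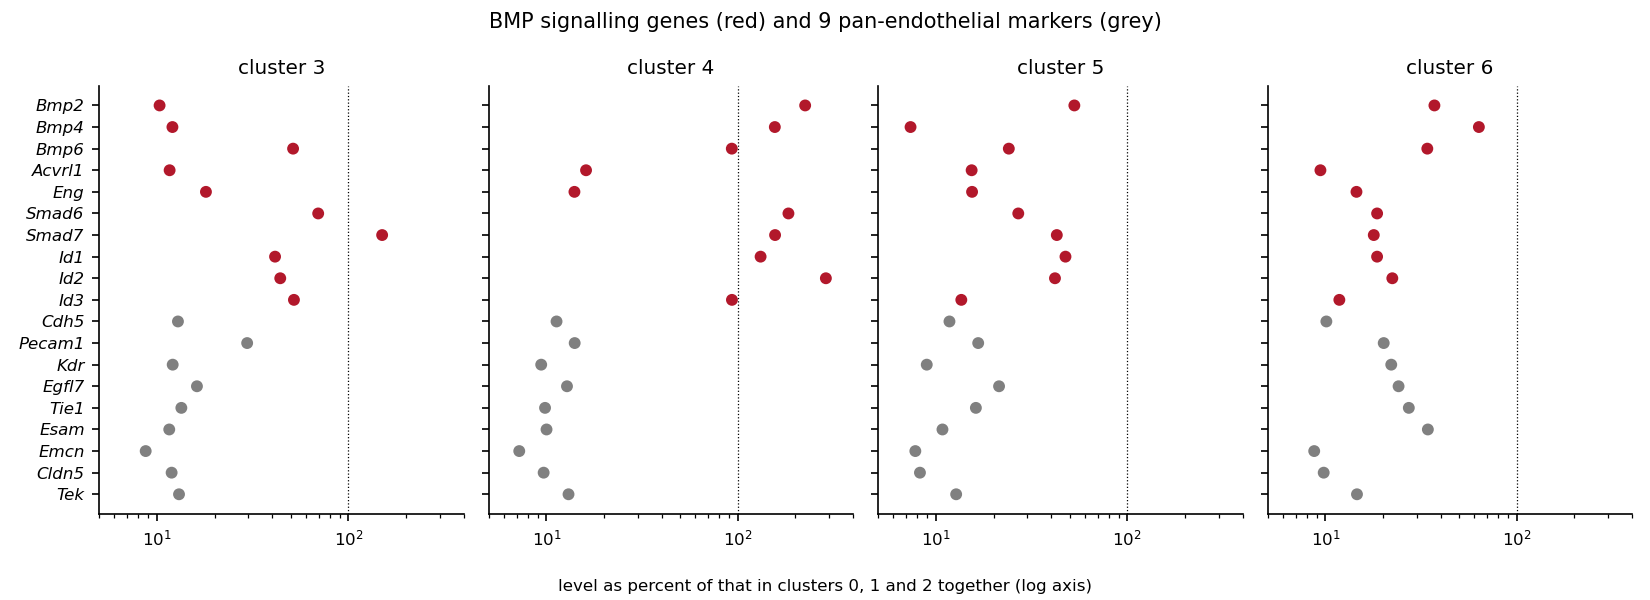
Level in clusters 3 to 6 (panels) as a percent of that in clusters 0, 1 and 2 together (horizontal log axis), for the 10 BMP genes in red and 9 pan-endothelial markers in grey. The dotted line marks 100%. Acvrl1 and Eng sit among or next to the grey points in all 4 panels, while Bmp4 is above them in clusters 4 and 6.

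Shares of cells were compared after every cell had been thinned to 5,000 UMIs, leaving out the 90 cells below that depth. A Smad6 UMI was found in 47.8% of cluster 0 cells (345 of 722, 44.1% to 51.5%) and 4.65% of cluster 2 cells (4.10% to 5.25%). Before thinning, 69.4% and 7.39% of cells lay above 0.5 counts per 10,000. For Id2, 57.0% of cluster 4 cells and 31.5% of cluster 2 cells held a UMI. For Bmp2 the share was 13.4% in cluster 1 (11.1% to 16.1%), 6.64% in cluster 4 and at most 3.89% elsewhere. For comparison, a UMI of Cdh5, the gene of the VE-cadherin protein used in the sort, was found in 14.5% to 30.1% of cells in clusters 3 to 6, against 85.8% to 97.7% in clusters 0 to 2. The shares for Eng were 14.3% to 25.5% and 62.3% to 78.3%.

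**Figure D4:**
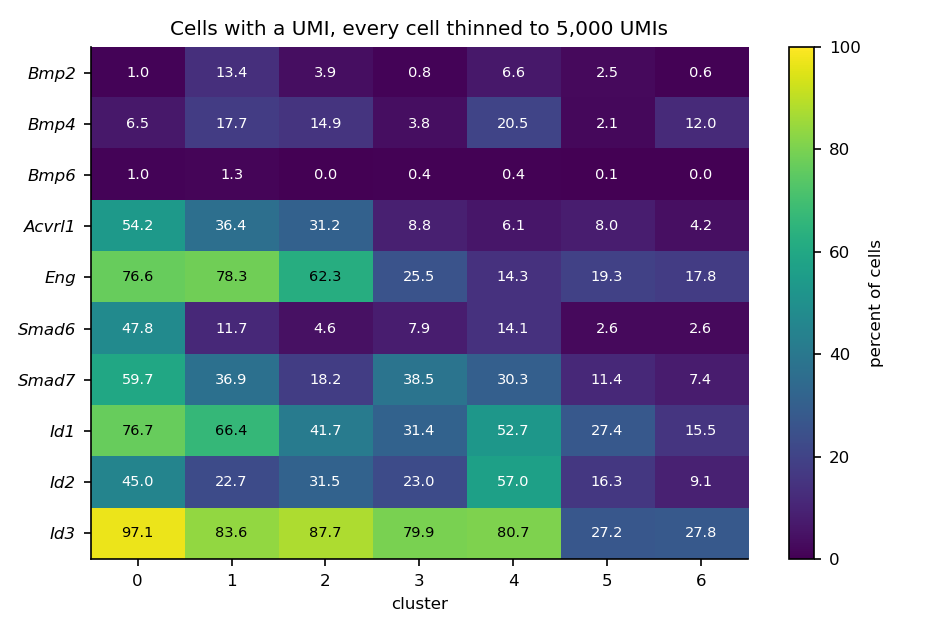
Percent of cells with at least 1 UMI of each gene (rows) in clusters 0 to 6 (columns), every cell thinned to 5,000 UMIs. The colour scale runs from 0 to 100%. Smad6 reaches 47.8% in cluster 0 and at most 14.1% elsewhere, and Id2 is highest in cluster 4 at 57.0%.

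Over cells of 1 cluster thinned to 5,000 UMIs, Id1 and Id3 were the pair of members with the highest coefficient in clusters 0, 1, 2, 3 and 5. Pearson's r of their log levels was 0.52 over 745 cells of cluster 1 (0.49 to 0.53 in the 3 libraries), 0.35 over 5,377 cells of cluster 2 and 0.31 over 722 cells of cluster 0. It was 0.29, 0.37, 0.37 and 0.32 in clusters 3, 4, 5 and 6. In cluster 4 Id2 had r of 0.38 with Id1 and 0.36 with Id3 over 512 cells. In cluster 1 Id2 had r of -0.03 with Id1 and -0.02 with Id3. In clusters 0, 2, 3, 5 and 6 the r of Id2 with Id3 was 0.23, 0.19, 0.21, 0.29 and 0.42. With Id1 it was 0.09, 0.12, 0.17, 0.16 and 0.12 in these clusters. Smad6 and Id1 had r of 0.20 in cluster 0 and 0.22 in cluster 4. Cells of a cluster share their libraries and their counting depth, and sparse counts hold such values low.

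Cluster 1 was also split by Bmp2, and Bmp2 went with Bmp4 and against the Id genes. Cells with a Bmp2 UMI numbered 100, and 36.0% of them held a Bmp4 UMI, against 14.9% of the other 645. The level of Bmp4 was 1.14 against 0.425 UMIs per 10,000, a log2 ratio of 1.42 (0.95 to 1.88), higher in each library. Id2, Id3 and Id1 were lower in the Bmp2-positive cells, with log2 ratios of -1.30 (-2.05 to -0.63), -0.77 (-0.94 to -0.61) and -0.52 (-0.75 to -0.30), as was Eng at -0.57. Cdh5 was higher at 0.59, and Fabp4, a capillary lipid carrier, was lower at -0.56. Cells with a UMI of the other cell types' lists had more Id2, at 1.94 against 0.434, higher in each library. Their Bmp2 level was 0.410 against 0.867, with a sign that differed between libraries. The part of these cells in the difference was not tested. Both splits of cluster 1 covered the members and at most a few further genes, with no share of all genes beside them.

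Runx1, the transcription factor needed for blood emergence, had a UMI in 54 of the 722 cluster 0 cells. In these cells Smad7 was lower than in the other 668, at 0.963 against 2.32 UMIs per 10,000, a log2 ratio of -1.27 (-1.89 to -0.71). Acvrl1 (-0.99), Eng (-0.89), Id2 (-0.65), Id3 (-0.53) and Id1 (-0.45) were lower as well, each in all 3 libraries, while Smad6 was at -0.18 (-0.71 to 0.32). In cluster 2, 87 Runx1-positive and 5,290 other cells gave Acvrl1, Eng, Id1, Smad6 and Smad7 log2 ratios with intervals that spanned 0, and Id3 was lower at -0.27 (-0.45 to -0.09). These splits by Runx1 were computed for the members only, so no share of all genes stands beside them. Whether other endothelial genes were lower too, and whether the clusters differ in this, was not tested.

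Within cluster 5, cells with a C1qb UMI and none of Mpo (685) and cells with Mpo and no C1qb (325) were each set beside the 507 cells with neither. Bmp2 was higher in the C1qb cells, at 0.117 against 0.0118 UMIs per 10,000, with 40 UMIs against 3, a log2 ratio of 3.30 (1.65 to 5.64). Acvrl1 was higher there too at 0.91 (0.30 to 1.54), whereas Eng (-0.61) and Smad6 (-1.78) were lower. In the Mpo cells Id1 was higher, at 1.38 against 0.892, and Id2 and Id3 were lower, with log2 ratios of 0.63, -1.56 and -0.95. The 3 Id genes thus differed in direction within the cluster. Only the members were computed here, so no share of all genes stands beside them.

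The other genes of the pathway were 72 listed by role, of which 71 were in the table. The list was chosen with earlier results of these data known, so its counts are descriptions. It holds Tmem100 and Sost, which are leading genes of cluster 0, and Hey1, which is also on the arterial marker list. In cluster 0 against cluster 2, 36 of the 71 reached the minimum level, 17 were higher and none lower, with 9.15% and 2.77% of all genes, and their median log2 ratio was 0.88. Among the targets, Tmem100, an endothelial target of ALK1, was at 2.98 against 0.0343 UMIs per 10,000 and Hey2, a Notch and BMP target of arteries, at 0.643 against 0.0115. Of the genes listed as secreted antagonists and modulators, Sost was at 1.29 against 0.0684 and Fstl1 at 7.14 against 1.63. The type I receptor Bmpr1a was at 0.224 against 0.0181 and the type II receptor Bmpr2 at 1.32 against 0.570. The 5 Smads that reached the level did not pass the fold.

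In cluster 1 against cluster 2, 35 reached the level, 16 were higher and 3 lower, with 20% and 10.4% of all genes, and the median was 0.80. Smad1, the receptor Smad, was at 1.55 against 0.518, and Pmepa1, a target that restrains Smad signalling, at 3.34 against 0.562. Among the targets, Cdkn1a, a cell cycle inhibitor that stress also raises, was at 6.98 against 0.330. Nbl1, a secreted antagonist, was at 0.300 against 0.00391. Those lower were the pseudoreceptor Bambi (0.516 against 1.37), the receptor Acvr2b (0.0999 against 0.304) and Zfp503.

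In cluster 3, 5 were higher and 16 lower of 35, with 12.3% and 24.3% of all genes, so that the share higher was near the background. The higher ones included Gdf3, a ligand of pluripotent cells, at 0.737 against 0.00118, Bmp7 at 0.156 and the homeobox target Msx2 at 0.395. In cluster 4, 17 were higher and 3 lower of 43, with 12.2% and 7.47% of all genes, so that the share lower was near the background. The higher ones took in the ligand Bmp7 (0.178), the antagonists Grem1 (0.140), Fst (0.142) and Nbl1 (0.204), the co-receptor Rgma (0.270), the receptors Bmpr1a (0.606) and Acvr2b (0.809) and the target Tcf21 (0.319). In cluster 5, 2 were higher (Runx1 and Gdf3) and 22 lower of 32, with 9.32% and 16.6% of all genes. In cluster 6, 1 was higher (Runx1) and 21 lower of 30, with 9.96% and 18.8% of all genes. The study's cluster numbers run towards higher Runx1, so high Runx1 in clusters 5 and 6 was built into the labels and is no separate result. The receptors Bmpr2, Acvr1, Acvr2a and Acvr2b and the Smads Smad1, Smad4 and Smad5 were among the lower in both. Gdf2 and Bmp10, the ligands of Acvrl1, had 4 and 2 UMIs in the whole table.

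**Figure D5:**
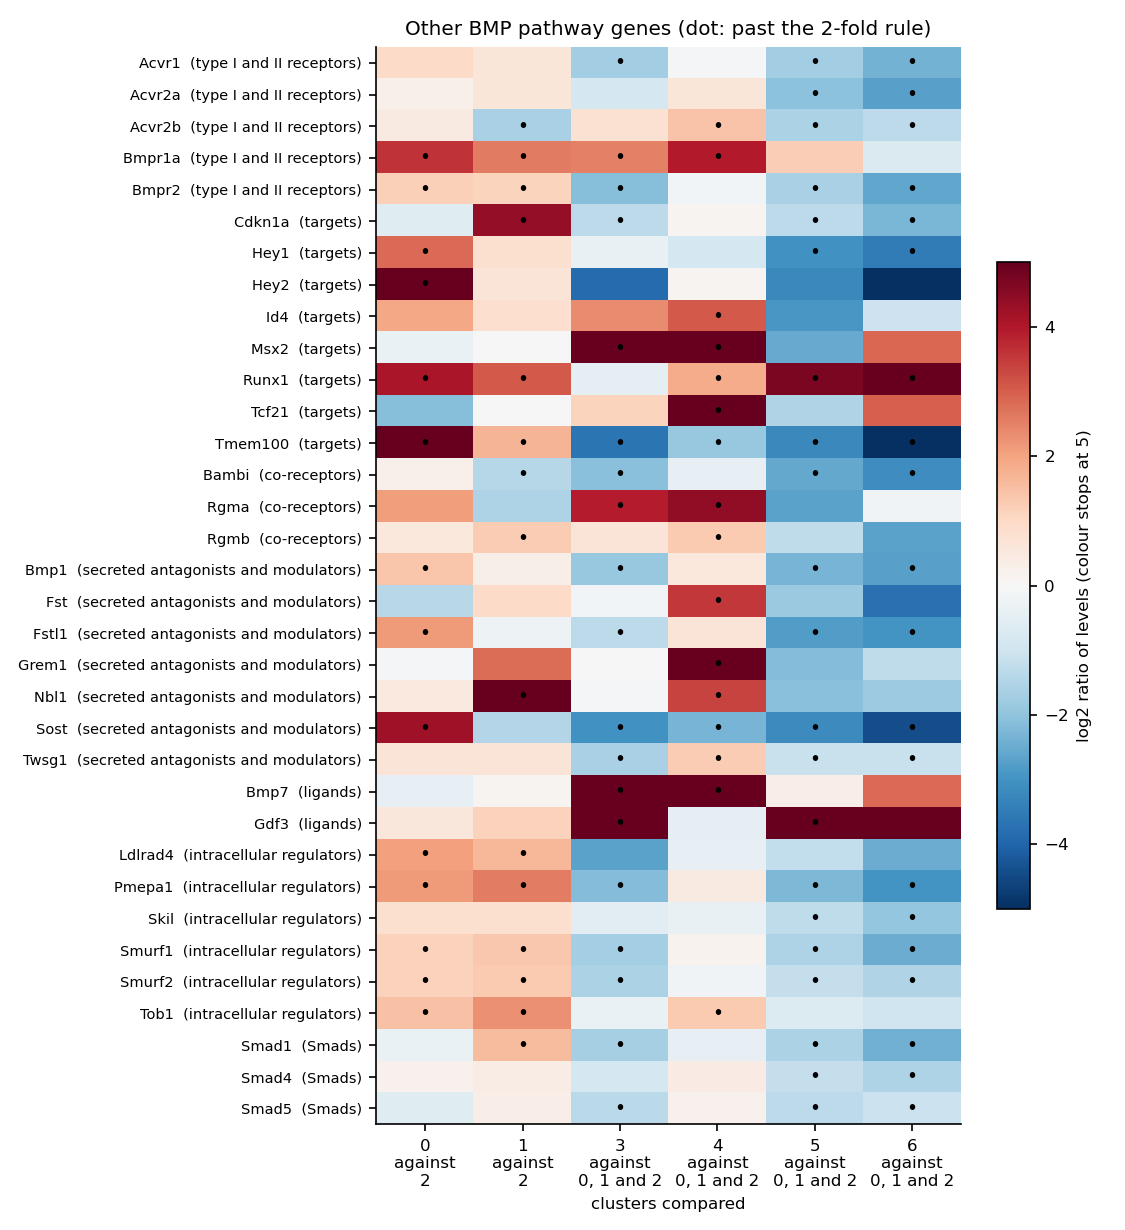
Log2 ratio of levels (colour, stopping at 5) of other pathway genes chosen by the rule for named genes (rows, with their role) in the 6 comparisons (columns). A dot marks a gene past the fold. The columns for clusters 5 and 6 hold dots on blue for receptors, Smads and regulators. Runx1, which the study used to number its clusters, is red in both.

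The genes whose levels were most like those of a member over the 21 groups of cells, among 5,500 genes, were found by Pearson's r. For Eng they were Flt1, Cdh5 and Adgrf5 (r of 0.99 each) and for Acvrl1 they were Tek, Sox7 and Mmrn2 (0.99 each). Smad6 was most like Fbn1, Htra1 and Pcsk5 (0.95 to 0.96), of which all 3 were among the leading genes of cluster 0. Bmp2 was most like Iigp1, Meox2 and Ccl5 (0.96 each) and Smad7 most like Ypel3, Hbp1 and Fgfr1 (0.95 to 0.98). Id1 was closest to Itm2c (0.98), Id2 to Mpnd (0.96), Bmp4 to Dlgap4 (0.91) and Bmp6, on its few counts, to Retreg2 (0.96). Among the members, Acvrl1 and Eng were most alike (0.97), then Smad6 and Smad7 (0.89), Id3 and Smad7 (0.88) and Id1 and Id3 (0.88). Bmp2 and Smad6 were least alike (0.12). The 21 groups share libraries and differ in depth, so these values are descriptions.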

How the data were processed

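Single-cell libraries (10x Genomics 3′ chemistry) of the 3 pools were processed by the authors with Cell Ranger 3.1.0 on mm10, with batch-effect removal at aggregation, and kept where they held singlets. Seurat 3.1.5 is named in the submitters' processing notes and Leiden clustering in the methods. The deposited count table holds raw UMI counts (27,998 gene rows, of which 27,722 were named from GENCODE M21, and 27,985 genes after summing rows of the same name), and the clusters are the authors' own, read from a deposited annotation with its embedding scores. The deposited table of normalised values was not used. The methods state a minimum of 5,000 UMIs, and 90 cells lie below it. No doublet caller was run here.

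UMIs were summed per gene, cluster and library suffix and divided by the group's UMIs with Python 3.11.15, pandas 2.3.3, numpy 2.4.6 and scipy 1.17.1. Intervals were exact Poisson (levels), Clopper-Pearson (shares) and conditional binomial (ratios), at 95%. The calculation of ratio intervals and calls was run on simulated Poisson counts without spread between libraries or cells, with changes only in well-counted genes. That run checks the calculation and not its fit to these data. PCR duplicates are collapsed by UMI. Named were all 10 members, up to 3 genes past the fold per pathway role and comparison, with the largest size of log2 ratio, and the 3 genes most like each member by Pearson's r of log2(level + 0.1). The members and lists were chosen with earlier results of these data known. Zfp503, Gdf2 and Bmp10 were named, and the splits of cluster 1 and cluster 5 made, after values were seen. Alternatives left out each library, weighted cells, libraries or clusters equally, thinned cells, left out the 5% of cells with most UMIs, centred the ratios, and changed the fold or minimum level. Some items that this rule names are not reported here.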

Additional observations from a re-analysis of the deposited data

How the results depend on the processing

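Of 34 member ratios past the fold, 301 values under the alternatives were computed. Of these, 300 kept the direction and 291 stayed at least 2-fold, and 18 moved by over 1.5 times, the largest by 1.51 on the log2 scale. In cluster 3, thinning gave -2.18 for Acvrl1, -1.82 for Eng and -2.43 for Bmp4, and equal cluster weights gave -2.15 for Id1. As a mean over cells Bmp4 in cluster 3 was at -2.37 and Acvrl1 in cluster 6 at -2.77. Thinning gave -3.11 for Bmp4 in cluster 5. Only Bmp2 in cluster 4 against clusters 0, 1 and 2 turned, to -0.14 with equal weights for the clusters. The count of members higher in that comparison was 1 to 2 with 1 library left out (1 without library 3). It was 1 as a mean over cells and after thinning, and no share of all genes stands beside these counts. With equal cluster weights it was 1 (10.9% of all genes), against 5 at a fold of 1.5 (20.9%). A fold of 1.5 gave 7 members higher in cluster 0 (18.9% of genes) and 1 in cluster 3 (21.7%). In cluster 3, equal cluster weights gave 8 lower (29.5% of genes). Without a minimum level, 2 were lower in cluster 0 (3.89% of genes). The cause of the Bmp2 change was not tested. Depth limits Bmp6, with 53 UMIs. No paired analysis was possible because no result came from a test. The same direction in each library is required by the rule for past the fold. The kept direction under the alternatives by library was therefore largely set in advance.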
